A study of Mus musculus with 9 samples.

Results

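The mRNA levels of 10 genes of the piRNA pathway were described across sorted male germ cells that had or had not been supplied with retinoic acid (RA). The genes were taken by name from the table of counts, which holds 24505 genes. They are the PIWI genes Piwil1, Piwil2 and Piwil4, the helicase genes Ddx4 and Mov10l1, the Tudor domain genes Tdrd1 and Tdrd9, Mael, and the genes Asz1 and Pld6 for proteins of the mitochondrial surface. All 10 were found in the table and all 10 passed the filter on low counts in each comparison.

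The cells came from Uchl1-eGfp mice, which carry EGFP under control of the Uchl1 promoter and had been outcrossed from C57BL/6 to CD-1. All mice had received WIN 18,446, an inhibitor of RA synthesis, at 100 µg/g from postnatal day (P) 1 (through P10 by the study's methods), and 1 subcutaneous injection of 10 µl of RA at 10 µg/µl at P11. In the RA-sufficient mice the inhibitor was then stopped, and in the RA-deficient mice it was continued. The 3 groups were In/B spermatogonia, the last differentiating spermatogonia, sorted from RA-sufficient testes as EGFP-bright cells at P17, RA-sufficient preleptotene (PL) spermatocytes, sorted as EGFP-dim cells at P19, and PL spermatocytes of the RA-deficient mice, also of P19. Each group had 3 libraries. The study's methods name several males per litter for the sorts used in quantitative PCR, and give no number of mice for RNA-seq. The study's methods give 3 or fewer independent cell preparations for RNA-seq, and the labels do not say whether the libraries of a group are separate sorts. The p-values thus measure only the spread between these libraries.

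PIWI-interacting RNAs (piRNAs) are small RNAs of the germline that guide PIWI proteins to transposons and other transcripts. In fetal prospermatogonia, PIWIL2 (MILI) and PIWIL4 (MIWI2) take up piRNAs made largely from transposons, and the nuclear PIWIL4 directs DNA methylation there. In meiosis, the transcription factor MYBL1 (A-MYB) switches on a second set, the pachytene piRNAs, which load PIWIL2 and PIWIL1 (MIWI). Their precursors are unwound by the helicase MOV10L1 and cut by PLD6 at mitochondria, where ASZ1 (GASZ) and TDRD1 help to hold the machinery together.

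Counts ran from 12612959 to 27042274 per library. In each group 1 library stood apart from a closer pair. These were In/B replicate 1, RA-sufficient PL replicate 1 and RA-deficient PL replicate 3. The differentiating spermatogonia markers (6 of 6 in the table, summed CPM, the read count scaled to library size with TMM factors) came to between 1440 and 1720 in In/B and between 346 and 777 in RA-sufficient PL libraries. In the RA-deficient PL group they came to 1750, 1710 and 397 in replicates 1, 2 and 3. The genes of this set moved apart there. Dmrtb1, at 93.5, 81.8 and 65.0 CPM, and Dmrt1 lay below all In/B libraries, Sohlh2, at 203, 195 and 103 CPM, lay above them, and Kit, Sohlh1 and Stra8 overlapped with them. Early meiotic markers (7 of 7) summed to between 705 and 1440 CPM in In/B, 2480 and 3540 in RA-sufficient PL, and 3310 and 4020 in RA-deficient PL libraries. The pachytene and spermatid markers (12 of 12) summed to between 9.73 and 40.3 CPM in In/B and between 214 and 646 in RA-sufficient PL libraries, the latter highest in replicate 1. In the RA-deficient PL group they summed to 3.80, 5.51 and 119 CPM in replicates 1, 2 and 3, with H1f6, Tnp1 and Prm2 at 0 in all of them. The Sertoli cell markers (8 of 9 in the table) summed to between 67.1 and 350 CPM in In/B, between 2860 and 3720 in RA-sufficient PL and between 290 and 516 in RA-deficient PL libraries. Stem and progenitor spermatogonia markers (8 of 8) summed to between 187 and 563 CPM and peritubular and stromal markers (7 of 7) to between 55.8 and 111 CPM over all libraries. The markers of Leydig cells stayed at or below 38.6 CPM and those of macrophages and blood at or below 15.9 CPM in every library, with Hbb-b1 and Hba-a1 at 0. In such bulk libraries, fewer cells of a type and less RNA per cell cannot be told apart. Stra8, a gene that RA induces, is part of the sum of 6 differentiating spermatogonia markers. The study also found its protein in RA-sufficient PL spermatocytes, and could not detect it in RA-deficient testes. For Stra8 mRNA it reported no upregulation in RA-deficient PL cells by quantitative PCR, and no significant change in them by RNA-seq. Stra8 lay at 54.4, 165 and 150 CPM in In/B, 444, 126 and 121 CPM in RA-sufficient PL and 377, 365 and 81.5 CPM in RA-deficient PL libraries, so it did not separate the PL groups. The results are therefore given library by library.

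**Figure D1:**
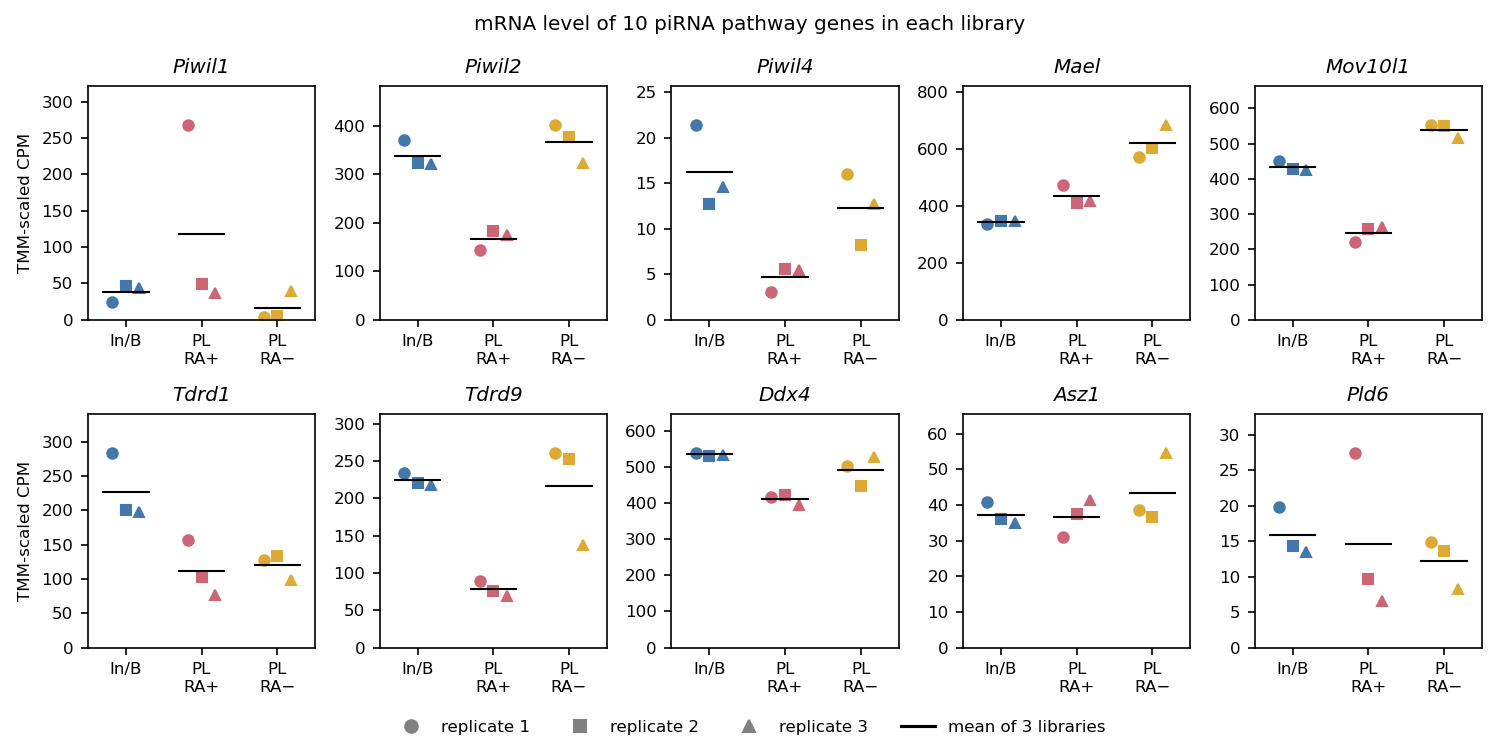
mRNA level of each of the 10 genes in TMM-scaled CPM (vertical axes from 0) in the 3 libraries of In/B spermatogonia, RA-sufficient PL (PL RA+) and RA-deficient PL (PL RA−) spermatocytes. Symbols give the replicate and black lines the mean of 3 libraries, and the libraries of Piwil2, Piwil4, Mov10l1, Tdrd9 and Ddx4 are lower in RA-sufficient PL than in both other groups, without overlap.

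Piwil1, which encodes the PIWI protein of pachytene spermatocytes and round spermatids, had the widest spread within each group, as the ratio of the highest to the lowest library, of all 10 genes. In the In/B libraries it lay at 24.1, 45.9 and 43.6 CPM. In the RA-sufficient PL libraries it lay at 268, 49.2 and 36.9 CPM, and in the RA-deficient PL libraries at 3.92, 4.75 and 40.1 CPM. The high value belongs to RA-sufficient PL replicate 1 and the 2 low values to RA-deficient PL replicates 1 and 2, while the other 6 libraries share a range of 24.1 to 49.2 CPM. The log2 fold change between the PL groups was -2.91 (RA-deficient against RA-sufficient, standard error 1.15, 95% interval -5.60 to -0.22), which did not pass the test (edgeR adjusted p = 0.109).

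The Piwil1 result turned on single libraries. Without RA-deficient PL replicate 3 the log2 fold change between the PL groups was -4.75 (edgeR adjusted p = 0.00741), and without RA-sufficient PL replicate 1 it was -1.39 (edgeR adjusted p = 0.41). Without the library that stood apart in each group it was -3.28 (edgeR adjusted p = 0.000246). RA-sufficient PL against In/B gave 1.70 (edgeR adjusted p = 0.0553) with all libraries, 0.24 without RA-sufficient PL replicate 1 and -0.05 without the 3 libraries that stood apart. For RA-deficient PL against In/B the value was -1.05 (edgeR adjusted p = 0.369) with all libraries and -2.95 (edgeR adjusted p = 0.000279) without RA-deficient PL replicate 3.

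Piwil1 was highest in RA-sufficient PL replicate 1 and in RA-deficient PL replicate 3 within their groups, and 3 of the 12 pachytene and spermatid markers, Ldhc, Pgk2 and Acr, were highest in both of these libraries too. The other 9 were not, and stayed at or below 4.94 CPM in every library. Ldhc alone made up 87.1% of the marker sum in RA-sufficient PL replicate 1. Ldhc, the germ cell lactate dehydrogenase, lay at 562, 183 and 171 CPM in RA-sufficient PL replicates 1, 2 and 3, and at 0.800, 1.74 and 89.8 CPM in the RA-deficient PL libraries. Tdrd6, a Tudor gene of the spermatid chromatoid body, lay at 295, 111 and 79.9 CPM in the former group and at 0.680, 0.911 and 35.3 CPM in the latter. Kit, the receptor of differentiating spermatogonia, had the reverse order within the RA-deficient PL group, with 561, 521 and 20.3 CPM. The part of pachytene cells or of spermatogonia in the Piwil1 difference was not tested.

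**Figure D2:**
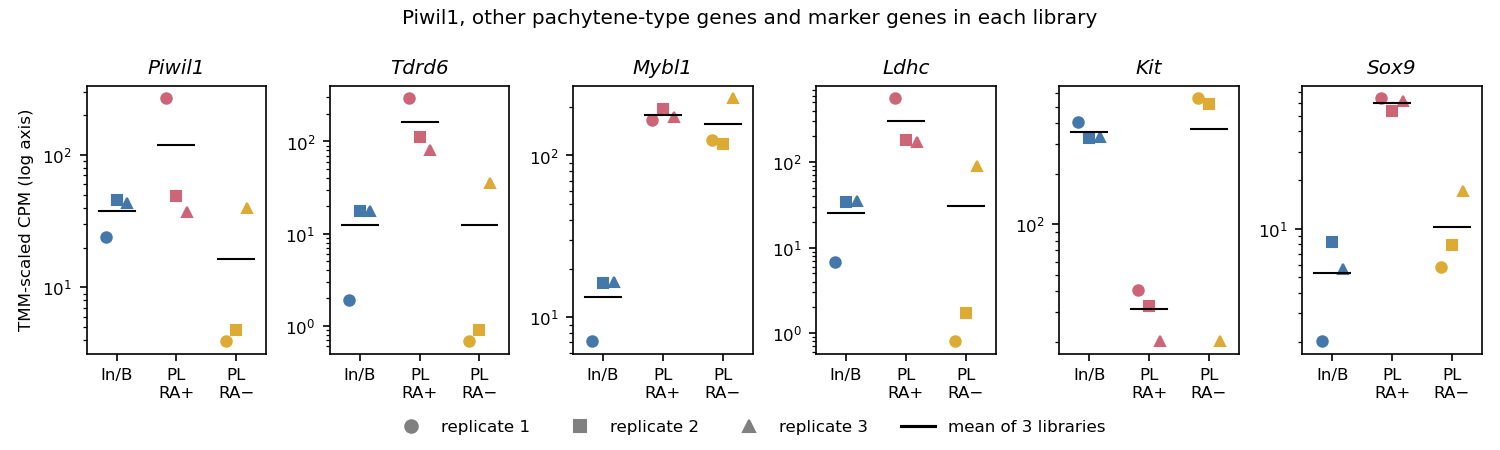
Piwil1, Tdrd6, Mybl1, the pachytene marker Ldhc, the spermatogonial marker Kit and the Sertoli cell marker Sox9 in each library, in TMM-scaled CPM on log axes whose range differs between panels. Symbols give the replicate and black lines the mean of 3 libraries, and RA-deficient PL replicate 3 is above replicates 1 and 2 in Piwil1, Tdrd6 and Ldhc and below them in Kit (20.3 against 561 and 521 CPM).

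Piwil2, which encodes the PIWI protein of both the fetal and the pachytene pathway, was the most abundant PIWI mRNA per length in 8 of the 9 libraries. It lay at 371, 324 and 321 CPM in In/B, 143, 184 and 174 CPM in RA-sufficient PL and 402, 377 and 323 CPM in RA-deficient PL libraries. The RA-sufficient PL libraries were below all others, and the In/B and RA-deficient PL libraries overlapped. In RA-deficient against RA-sufficient PL it was higher by 1.14 on the log2 scale (standard error 0.13, edgeR adjusted p = 0.00206) and was called. A gene was called when its absolute log2 fold change was above 1 and its adjusted p below 0.05. In RA-sufficient PL against In/B the log2 fold change was -0.97 (edgeR adjusted p = 0.000291), just short of the minimum fold. Leaving out In/B replicate 2 or 3 or RA-sufficient PL replicate 2 carried it past, at -1.03, -1.02 and -1.05.

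Piwil4, the nuclear PIWI gene of the fetal pathway, had the lowest mean per length of the 10 genes in each group. Its levels were 21.4, 12.7 and 14.6 CPM in In/B, 3.09, 5.58 and 5.47 CPM in RA-sufficient PL and 16.0, 8.24 and 12.7 CPM in RA-deficient PL libraries, from between 42 and 401 counts. Again the RA-sufficient PL libraries lay below all others. Piwil4 fell by 1.72 on the log2 scale from In/B to RA-sufficient PL (standard error 0.33, edgeR adjusted p = 0.00188). RA-deficient against RA-sufficient PL gave 1.39 (standard error 0.40, edgeR adjusted p = 0.0421), a call that was lost when RA-deficient PL replicate 1 or any of the 3 RA-sufficient PL libraries was left out (edgeR adjusted p between 0.109 and 0.132). A stretch of 137 bp, 2.54% of the exon length of Piwil4, is shared with the opposite-strand transcript Gm10706, and the sources used here do not say whether strand was used in counting.

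The make-up of PIWI mRNA within a library does not depend on how libraries are scaled. Per length, as RPKM (CPM per kilobase of exon), Piwil1 made up 7.14%, 14.5% and 14.0% of the summed PIWI mRNA in the In/B libraries and 69.6%, 24.5% and 20.5% in the RA-sufficient PL libraries. In the RA-deficient PL libraries it made up 1.16%, 1.52% and 13.0%. Every RA-sufficient PL library thus had a larger share of Piwil1 than any other library. The CPM of Piwil1 was 49.2 in replicate 2, just above the highest In/B library at 45.9, and 36.9 in replicate 3, within the In/B range. The summed PIWI mRNA was lower in these replicates, at 50.9 and 45.7 RPKM, than in In/B, at 79.1 to 85.5 RPKM. Their larger share of Piwil1 thus went mainly with lower Piwil2. Piwil2 made up 84.4% ± 3.26 (SD, n = 3) in In/B, 60.2% ± 26.4 in RA-sufficient PL and 92.0% ± 6.94 in RA-deficient PL libraries.

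The log2 ratio of Piwil1 to Piwil4 per length sets the pachytene-type against the fetal-type PIWI gene. It averaged 1.65 ± 0.90 in In/B, 4.55 ± 2.02 in RA-sufficient PL and 0.06 ± 1.88 in RA-deficient PL libraries (SD, n = 3). The 3 RA-sufficient PL libraries, at 6.87, 3.58 and 3.20, were above all 6 others, the highest of which was In/B replicate 2 at 2.30. The difference was 2.90 from In/B to RA-sufficient PL and -4.49 from RA-sufficient to RA-deficient PL, each with p = 0.1 in a two-sided exact permutation test, the smallest that 3 against 3 libraries allow. For RA-deficient PL against In/B the difference was -1.59 with p = 0.3 in the same exact permutation test. None of the 3 values could reach 0.05 in this design. Leaving out RA-sufficient PL replicate 1 moved the 2.90 to 1.74, and the -1.59 became -0.77 without RA-deficient PL replicate 1 and -2.61 without replicate 3. In RA-sufficient PL replicates 2 and 3 Piwil4, at 5.58 and 5.47 CPM, was below all In/B libraries, at 12.7 to 21.4 CPM. Piwil1, at 49.2 and 36.9 CPM there, was near its In/B levels of 24.1 to 45.9 CPM. The higher ratio in these replicates thus went mainly with lower Piwil4.

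**Figure D3:**
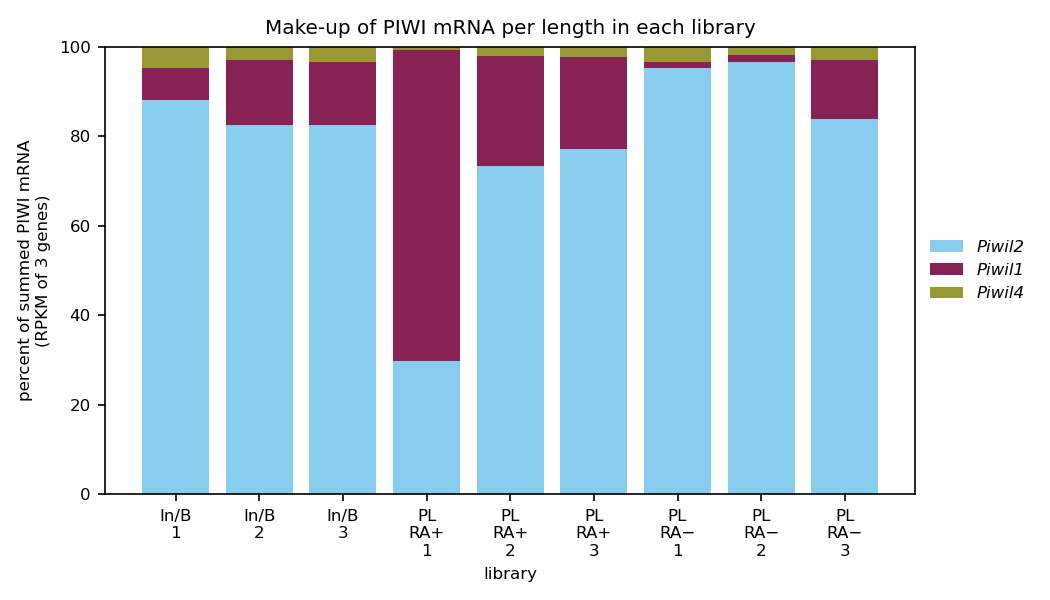
Share of Piwil2, Piwil1 and Piwil4 in the summed PIWI mRNA of each library, in percent of the RPKM of the 3 genes (stacked bars from 0). Piwil1 takes 69.6% in RA-sufficient PL (PL RA+) replicate 1, between 20.5% and 24.5% in replicates 2 and 3, and 1.16% and 1.52% in RA-deficient PL (PL RA−) replicates 1 and 2.

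Ddx4 (VASA), a germ cell helicase that serves piRNA amplification and marks germ cells at large, had the narrowest range over the 9 libraries of the 10 genes. It lay at 540, 532 and 534 CPM in In/B, 418, 423 and 396 CPM in RA-sufficient PL and 504, 449 and 527 CPM in RA-deficient PL libraries. The RA-sufficient PL libraries were lowest and overlapped with neither other group. The log2 fold change of RA-sufficient PL against In/B was -0.32 (standard error 0.10, edgeR adjusted p = 0.0172), and without In/B replicate 3 or RA-sufficient PL replicate 3 it no longer passed 0.05. Between the PL groups it was 0.25 (95% interval 0.00 to 0.50, edgeR adjusted p = 0.129), and for RA-deficient PL against In/B 0.05, although the CPM was lower in every RA-deficient PL library. That CPM is scaled over all 9 libraries, and each fit over its own 6.

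Mov10l1, the helicase that binds piRNA precursors, showed the order of Piwil2 with narrower groups. Its levels were 451, 428 and 426 CPM in In/B, 221, 259 and 263 CPM in RA-sufficient PL and 553, 549 and 516 CPM in RA-deficient PL libraries, with no overlap between any of the groups. Between the PL groups it was higher in RA-deficient cells by 1.12 on the log2 scale (standard error 0.10, edgeR adjusted p = 0.00093), and it stayed called with each library left out in turn. Against In/B the log2 fold change was -0.76 in RA-sufficient PL (edgeR adjusted p = 0.000419) and 0.48 in RA-deficient PL (edgeR adjusted p = 0.00607). Both are under the minimum fold.

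Tdrd9, a helicase with a Tudor domain that works with PIWIL4 in the fetal pathway, had the largest called difference between the PL groups among the 10 genes. It lay at 234, 221 and 218 CPM in In/B, 88.9, 75.4 and 69.5 CPM in RA-sufficient PL and 261, 252 and 137 CPM in RA-deficient PL libraries. RA-deficient PL replicate 3 was well below replicates 1 and 2 but still above all RA-sufficient PL libraries. The log2 fold change was -1.47 in RA-sufficient PL against In/B (standard error 0.13, edgeR adjusted p = 3.42e-05) and 1.47 between the PL groups (standard error 0.26, edgeR adjusted p = 0.00918). Both calls held with each library left out in turn. RA-deficient PL against In/B gave 0.12 (95% interval -0.42 to 0.65), and 0.36 (edgeR adjusted p = 0.0168) without RA-deficient PL replicate 3.

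Tdrd1, the Tudor scaffold that binds PIWIL2 between mitochondria, was lower in both PL groups than in In/B. It lay at 284, 200 and 197 CPM in In/B, 157, 103 and 76.3 CPM in RA-sufficient PL and 128, 134 and 98.8 CPM in RA-deficient PL libraries. The ranges of the PL groups overlapped, and both lay below all In/B libraries. The log2 fold change between them was 0.09 (95% interval -0.59 to 0.76, edgeR adjusted p = 0.85), and 0.58 (edgeR adjusted p = 0.0236) without the library that stood apart in each group. Against In/B it was -0.97 in RA-sufficient PL (edgeR adjusted p = 0.0114), called lower at -1.30 without RA-sufficient PL replicate 1 and at -1.08 and -1.07 without In/B replicate 2 or 3. In RA-deficient PL against In/B it was -0.75 (edgeR adjusted p = 0.0194), and -0.55 (edgeR adjusted p = 0.0503) without In/B replicate 1.

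Mael, which encodes a nuage protein needed for transposon silencing and for piRNA production in spermatocytes, was the only gene of the 10 above In/B in all libraries of both PL groups. Its levels were 338, 346 and 347 CPM in In/B, 474, 412 and 418 CPM in RA-sufficient PL and 574, 605 and 685 CPM in RA-deficient PL libraries. None of the 3 groups overlapped. Mael rose by 1.02 on the log2 scale in RA-deficient PL against In/B (standard error 0.10, edgeR adjusted p = 0.000291), just past the minimum fold. Without In/B replicate 2 it was 0.99 and without RA-deficient PL replicate 3 it was 0.95, each under it. Between the PL groups the value was 0.51 (edgeR adjusted p = 0.0262), and it missed 0.05 without RA-sufficient PL replicate 2 or 3 or RA-deficient PL replicate 2 (edgeR adjusted p between 0.0565 and 0.105).

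Asz1 and Pld6, whose proteins sit on the outer mitochondrial membrane, showed no difference past the test in any of the 3 comparisons. Asz1 lay at 40.9, 36.1 and 35.0 CPM in In/B, 30.9, 37.5 and 41.3 CPM in RA-sufficient PL and 38.7, 36.7 and 54.7 CPM in RA-deficient PL libraries, with all groups overlapping. The 95% interval of its log2 fold change was -0.36 to 0.41 in RA-sufficient PL against In/B, whereas between the PL groups it was -0.26 to 0.75. Pld6, the nuclease gene, lay at 19.8, 14.3 and 13.5 CPM in In/B, 27.5, 9.70 and 6.53 CPM in RA-sufficient PL and 14.9, 13.6 and 8.26 CPM in RA-deficient PL libraries. RA-sufficient PL replicate 1 had the highest Pld6 of all 9 libraries and replicate 3 the lowest. Its interval between the PL groups was correspondingly wide, from -1.63 to 1.07, and without RA-sufficient PL replicate 1 the log2 fold change of RA-sufficient PL against In/B moved from -0.07 to -0.93 (edgeR adjusted p = 0.0277).

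Levels of different genes were compared per length. In In/B spermatogonia Mael had the most mRNA of the 10 genes, at 222 ± 3.08 RPKM (SD, n = 3), followed by Ddx4 at 188 ± 1.30, Mov10l1 at 103 ± 3.24 and Piwil2 at 68.9 ± 5.63 RPKM. Tdrd9 at 46.6 ± 1.81 and Tdrd1 at 41.7 ± 9.12 RPKM overlapped, as did Piwil1 at 9.60 ± 3.04 and Pld6 at 9.02 ± 1.98, with Asz1 above them at 13.2 ± 1.10. Piwil4 was last at 3.01 ± 0.851 RPKM. In RA-deficient PL spermatocytes the first 5 places were held by Mael at 402 ± 37.2, Ddx4 at 173 ± 14.2, Mov10l1 at 128 ± 4.78, Piwil2 at 74.7 ± 8.25 and Tdrd9 at 45.0 ± 14.3 RPKM. In RA-sufficient PL spermatocytes Piwil1, from 9.36 to 67.9 RPKM over its libraries, overlapped in range with Mov10l1, Piwil2, Tdrd1, Tdrd9, Asz1 and Pld6, and its place in the order cannot be set.

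**Figure D4:**
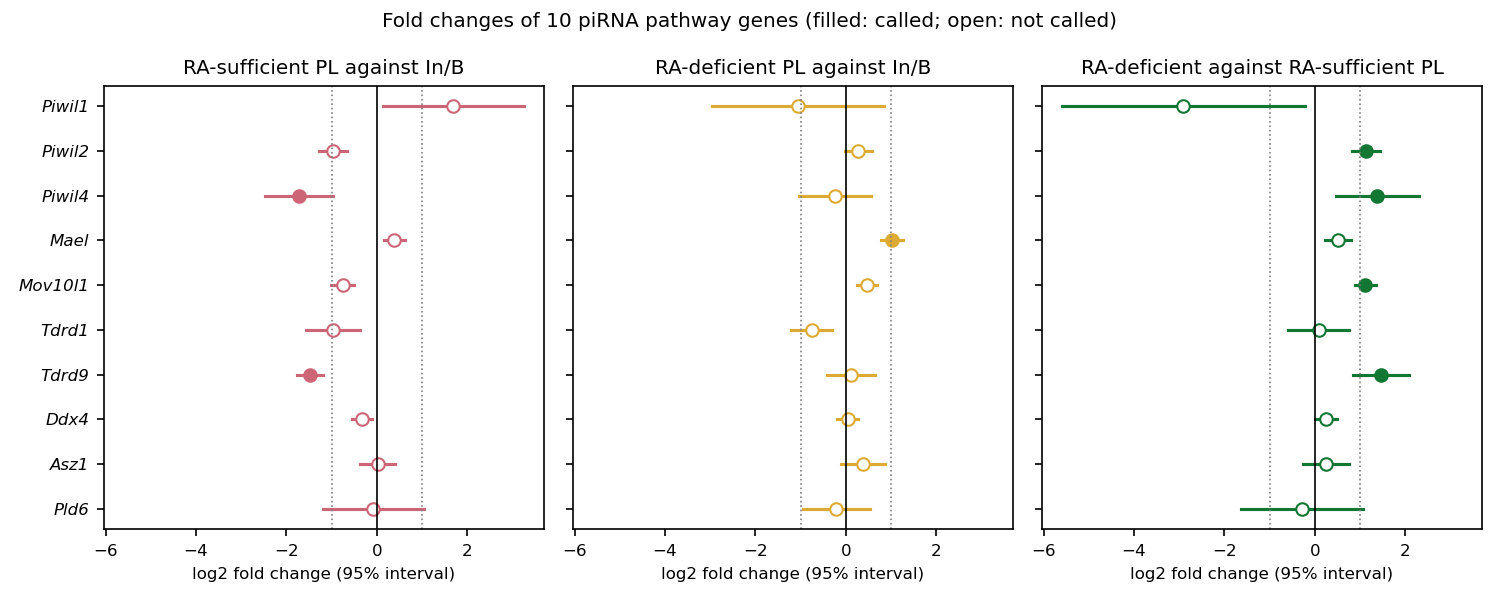
log2 fold change (horizontal axis) of the 10 genes in the 3 comparisons, with 95% intervals as bars. Filled points passed both the fold minimum of 1 (dotted lines) and the adjusted p threshold, and the 4 filled points between the PL groups, Piwil2, Piwil4, Mov10l1 and Tdrd9, all lie above 1.

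From In/B to RA-sufficient PL spermatocytes, 2 of the 10 genes were called lower (Piwil4 and Tdrd9) and 0 higher by edgeR. Of all 15001 genes tested 45.4% were called in either direction, 26.1% higher and 19.3% lower, so the called share of the 10 genes was under that background, and the share called lower close to it. With adjusted p alone, 7 of the 10 genes passed, against 65.0% of all genes. With DESeq2 the same count of 2 was found, and at an unadjusted p under 0.05 only Piwil1 (1.70) and Mael (0.39) were higher. In 6 genes the groups did not overlap with RA-sufficient PL lower and in 1 with it higher, against 35.9% and 35.6% of all genes, or 71.5% in either direction. The median log2 fold change of the 10 genes was -0.54, beside 0.04 over all genes.

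In RA-deficient PL against In/B, 1 of the 10 genes was called, Mael, which was higher. Among all 14877 genes tested 23.2% were called, 11.4% higher and 11.8% lower. With adjusted p alone, 3 of the 10 genes passed, against 36.7% of all genes. The groups did not overlap in 4 genes (Mael and Mov10l1 higher, Tdrd1 and Ddx4 lower), against 54.6% of all genes (21.0% higher and 33.6% lower). The median log2 fold change was 0.08, beside 0.00 over all genes.

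Between the PL groups, 4 of the 10 genes were called higher in RA-deficient cells (Piwil2, Piwil4, Mov10l1 and Tdrd9) and 0 lower by edgeR. Among all 15352 genes tested 15.5% were called in either direction and 4.47% higher. With adjusted p alone 5 of the 10 genes passed, all higher, against 23.6% of all genes. With DESeq2 these counts were also 4 and 0, and at an unadjusted p under 0.05 Piwil1 was lower, at -2.91. RA-deficient PL was above RA-sufficient PL without overlap in 6 genes, against 20.1% of all genes, and below it in 0, against 27.3%. Over all genes 47.4% did not overlap in either direction. The median log2 fold change of the 10 genes was 0.38, beside -0.09 over all genes. This comparison shares its RA-sufficient PL libraries with the comparison to In/B, and the values of Piwil4 (1.39 and -1.72) and Tdrd9 (1.47 and -1.47) both rest on them.

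The RA-sufficient PL libraries, in which these 4 genes were low, were also those with the high Sertoli cell markers given above. When libraries were scaled to Ddx4 in place of TMM, the differences between the PL groups became 0.89 for Piwil2, 1.11 for Piwil4, 0.87 for Mov10l1 and 1.24 for Tdrd9. Only Tdrd9 stayed called (edgeR adjusted p = 0.0194), while Piwil2 and Mov10l1 passed 0.05 (edgeR adjusted p = 0.0109 and 0.00595) below the minimum fold. Ddx4 is itself among the pathway genes described and was lower in RA-sufficient PL. Scaling to it therefore shifted all genes down by a like amount, and moved the median of all genes from -0.09 to -0.34. The calls lost near the minimum fold follow from this shift and do not test the part of Sertoli cell RNA. Within the RA-deficient PL group, replicate 3, which had the lowest sum of differentiating spermatogonia markers but the highest of stem and progenitor markers (457 against 379 and 324 CPM), had levels of Piwil2 (323 against 402 and 377 CPM) and Tdrd9 below those of replicates 1 and 2, and without it the log2 fold changes of Piwil2 and Tdrd9 were 1.23 and 1.73. The part of spermatogonial or Sertoli cell RNA in these differences was not tested.

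Of a longer list of 36 genes of the pathway, 33 were in the table, and Spocd1, Dnmt3c and Gtsf2 were not analysed here. Of these 33, 6 were called higher and 10 lower from In/B to RA-sufficient PL, against 26.1% and 19.3% of all genes. In RA-deficient PL against In/B, 5 of 32 tested were called higher and 1 lower, against 11.4% and 11.8% of all genes. Between the PL groups 5 of 33 were called higher in RA-deficient cells and 0 lower, where 4.47% of all genes were called higher and 15.5% in either direction. The median log2 fold changes were -0.22, 0.18 and 0.23, beside 0.04, 0.00 and -0.09 over all genes. Leaving out RA-deficient PL replicate 3 raised the count between the PL groups to 12, of which 10 were higher in RA-deficient cells. Calls over all genes rose too, from 2383 of 15352 to 4484 of 15799, of which 1266 were higher. Leaving out RA-deficient PL replicate 1 or any of the RA-sufficient PL libraries lowered the count to 3. Calls over all genes then fell to between 1190 and 1773.

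The class listed as nuclear silencing in the fetal germline had 5 genes in the table. Nanos3 was listed there although it encodes an RNA-binding factor. Of these 5, Morc1 and Nanos3 were called higher in RA-deficient than RA-sufficient PL cells, beside 4.47% of all genes. Morc1, a chromatin ATPase of transposon silencing, lay at 66.6, 43.6 and 46.3 CPM in In/B, 12.2, 20.9 and 14.8 CPM in RA-sufficient PL and 41.0, 35.9 and 46.3 CPM in RA-deficient PL libraries. Its log2 fold change was -1.66 from In/B to RA-sufficient PL and 1.36 between the PL groups (edgeR adjusted p = 0.000637 and 0.0103). Nanos3, an RNA-binding factor of early germ cells, changed by -1.88 and 2.39 (edgeR adjusted p = 0.00395 and 0.0215), with 1.18, 3.03 and 3.57 CPM in RA-sufficient PL libraries. The RA-sufficient PL libraries also had lower sums of both sets of spermatogonial markers than all In/B libraries. The stem and progenitor set was split in that comparison. Zbtb16 and Sall4 were called lower (-1.59 and -1.11), Id4, Gfra1 and Etv5 were called higher (1.57, 1.78 and 1.95), and the others were not called. The part of spermatogonial RNA in these values was not tested.

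Other genes of that class had another order. Tex15, which binds PIWIL2 and is needed for transposon silencing, lay between 832 and 883 CPM in In/B, between 1530 and 2810 in RA-sufficient PL and between 2670 and 3920 in RA-deficient PL libraries. It was called higher in both PL groups against In/B, by 1.43 and 2.03 on the log2 scale (edgeR adjusted p = 0.000364 and 0.0001). Morc2a was called higher only in RA-deficient PL against In/B, by 1.53, with 0.78 between the PL groups (edgeR adjusted p = 0.00636). Dnmt3l, the cofactor of fetal DNA methylation, stayed at or below 3.06 CPM in every library and passed no test. It shares 2.24% of its exon length with the opposite-strand gene Aire.

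Among 9 genes of pachytene cluster transcription and pachytene-type granules, Mybl1 and Tdrd6 had the largest log2 fold changes from In/B to RA-sufficient PL, and the difference between these 2 was small beside their errors. Mybl1, the transcription factor of pachytene piRNA clusters, lay at 7.10, 16.2 and 16.5 CPM in In/B, 166, 194 and 174 CPM in RA-sufficient PL and 124, 117 and 226 CPM in RA-deficient PL libraries. Both PL groups were far above In/B and overlapped with each other. The log2 fold change was 3.80 in RA-sufficient PL against In/B, 3.72 in RA-deficient PL against In/B (edgeR adjusted p = 2.2e-05 and 0.000359) and -0.20 between the PL groups (edgeR adjusted p = 0.601). Piwil1 and Tdrd6 differed from Mybl1 in RA-deficient PL replicates 1 and 2, where Mybl1 was at 124 and 117 CPM while Piwil1 was under 5 and Tdrd6 under 1 CPM.

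Tdrd6 rose by 3.76 on the log2 scale from In/B to RA-sufficient PL (edgeR adjusted p = 0.0025). Its log2 fold change between the PL groups was -3.76 (standard error 1.45, edgeR adjusted p = 0.102), which became -7.65 (edgeR adjusted p = 0.000437) without RA-deficient PL replicate 3. In RA-deficient PL against In/B it moved from 0.16 to -3.77 (edgeR adjusted p = 0.0128) without that library. Adad2, an RNA-binding gene of pachytene germ granules, lay at 16.0, 10.5 and 14.9 CPM in RA-sufficient PL and 106, 135 and 43.0 CPM in RA-deficient PL libraries. It was called higher in the latter by 2.77 (edgeR adjusted p = 0.00568), and called lower in RA-sufficient PL against In/B by -1.91. Kif17, a kinesin of the chromatoid body, was also called lower there, by -1.71, with 1.08 between the PL groups (edgeR adjusted p = 0.0592), or 1.30 (edgeR adjusted p = 0.0111) without RA-deficient PL replicate 3.

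Of 19 partners in biogenesis, 3 were called higher and 6 lower from In/B to RA-sufficient PL, beside 26.1% and 19.3% of all genes, so the share called in either direction was close to the background of 45.4%. Pnldc1, the trimmer of piRNA 3′ ends, fell by 2.25 on the log2 scale, from 88.3, 92.7 and 100.0 CPM to 21.3, 19.6 and 15.9 CPM (edgeR adjusted p = 1.72e-05), and in RA-deficient PL libraries it lay at 46.3, 36.2 and 20.2 CPM. It was the 1 gene of the list called lower in RA-deficient PL against In/B, by -1.29 (edgeR adjusted p = 0.00954). Tex19.1, a germ cell factor of transposon control with the close paralog Tex19.2, with which reads may have been shared, fell by 2.05 in RA-sufficient PL and was called higher between the PL groups by 1.19 (edgeR adjusted p = 0.0343). Wdr77, the cofactor of the arginine methyltransferase that marks PIWI proteins, fell by 1.87 in RA-sufficient PL, but 15.4% of its exon length is shared with Ovgp1 on the same strand, so its counts are uncertain.

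Gpat2, a mitochondrial partner of PIWIL2, had the order of groups seen for Mael. It lay at 131, 190 and 171 CPM in In/B, 238, 272 and 326 CPM in RA-sufficient PL and 566, 521 and 492 CPM in RA-deficient PL libraries, without overlap. It was called higher in RA-deficient PL against In/B, by 1.85 (edgeR adjusted p = 0.000111), with 0.92 between the PL groups (edgeR adjusted p = 0.00339). Tdrkh, the Tudor partner of PIWIL1 on mitochondria, stayed between 138 and 192 CPM in all 9 libraries, with 95% intervals of its log2 fold change that cross 0 in each comparison.

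**Figure D5:**
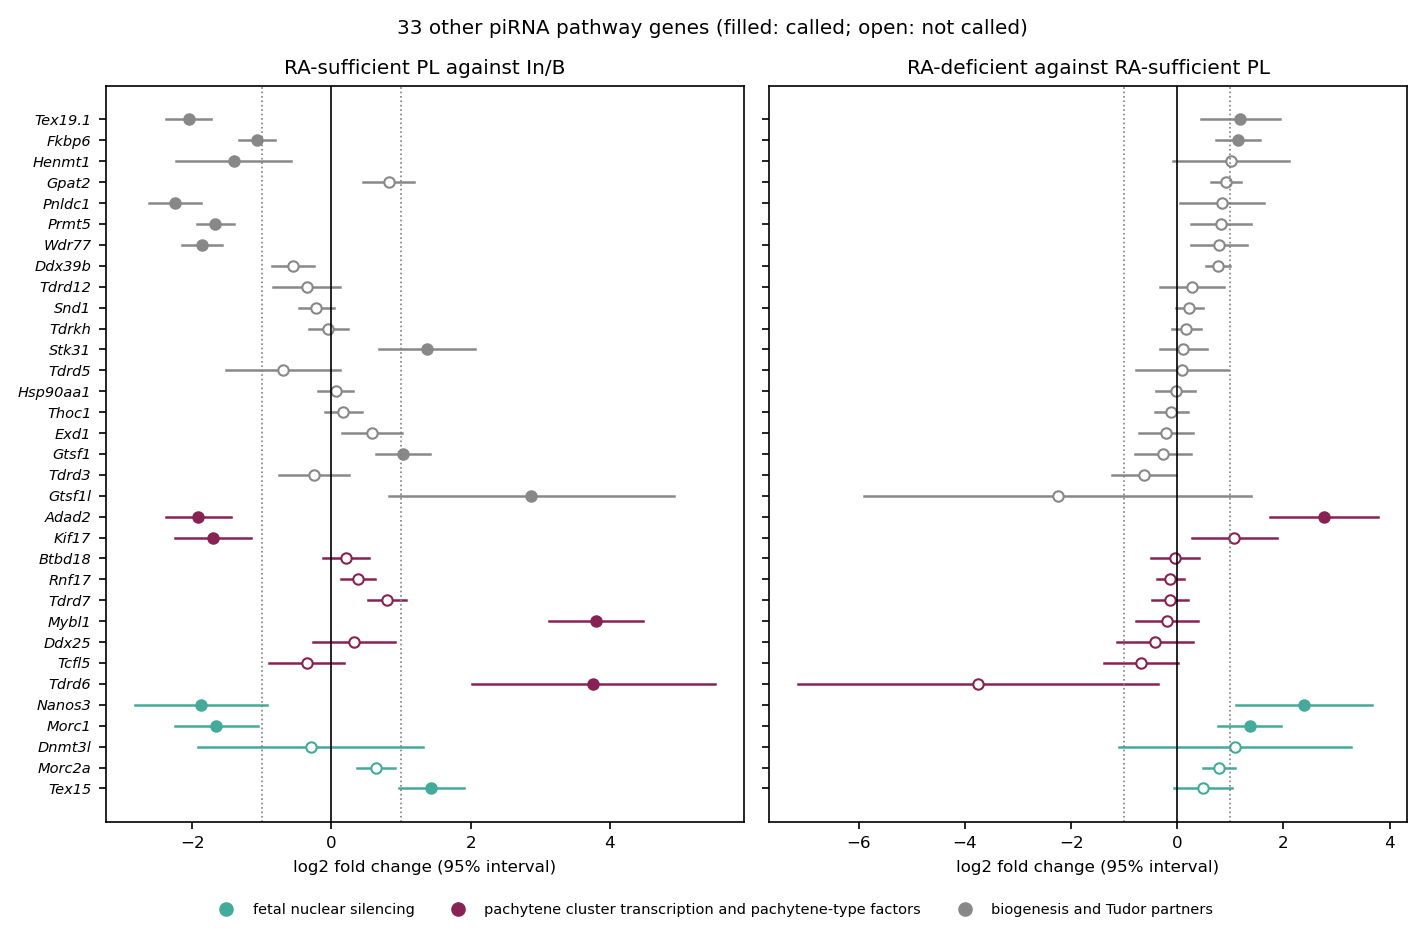
log2 fold change with 95% interval (bars) of the 33 further pathway genes, from In/B to RA-sufficient PL (left) and between the PL groups, RA-deficient against RA-sufficient (right), coloured by class and ordered within each class by the right panel. Filled points were called, and the 5 filled points on the right (Tex19.1, Fkbp6, Adad2, Nanos3 and Morc1) are all above 1. The RA-sufficient PL libraries enter both panels.

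Since 4 of the 10 genes were called in 1 direction between the PL groups, the promoters were compared in sequence. Starts were matched for 9 of the 10 genes in RefSeq's promoter table (windows of 250 bases before to 50 after the start, from GRCm38.p6), and their coordinates here are those of the match to mm9. Piwil2 was not matched. The 250 bases before the start are shown for the 2 genes with a pair of CACGTG motifs, Piwil1 and Tdrd9, for Mael and Ddx4 with a single motif, and for Asz1 with none. Letters run 5′ to 3′ on the gene's strand, and capitals mark CACGTG, an E-box whose letters read the same on both strands.
Piwil1, plus strand, chr5:129241871-129242120: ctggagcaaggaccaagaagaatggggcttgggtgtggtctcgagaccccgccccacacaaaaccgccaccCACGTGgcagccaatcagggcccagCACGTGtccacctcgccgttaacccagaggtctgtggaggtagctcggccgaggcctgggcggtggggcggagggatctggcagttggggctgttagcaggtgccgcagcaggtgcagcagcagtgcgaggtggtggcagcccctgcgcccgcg
Tdrd9, plus strand, chr12:113209520-113209769: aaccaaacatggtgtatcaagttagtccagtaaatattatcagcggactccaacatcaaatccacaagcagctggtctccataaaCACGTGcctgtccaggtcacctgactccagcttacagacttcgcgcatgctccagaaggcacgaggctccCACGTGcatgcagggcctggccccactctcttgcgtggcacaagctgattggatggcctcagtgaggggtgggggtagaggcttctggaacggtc
Mael, minus strand, chr1:168168876-168169125: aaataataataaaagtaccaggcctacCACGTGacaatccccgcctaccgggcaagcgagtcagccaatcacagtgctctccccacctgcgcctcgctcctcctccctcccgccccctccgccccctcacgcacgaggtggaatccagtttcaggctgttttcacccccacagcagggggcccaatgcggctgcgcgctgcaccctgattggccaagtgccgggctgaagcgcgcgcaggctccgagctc
Ddx4, minus strand, chr13:113442519-113442768: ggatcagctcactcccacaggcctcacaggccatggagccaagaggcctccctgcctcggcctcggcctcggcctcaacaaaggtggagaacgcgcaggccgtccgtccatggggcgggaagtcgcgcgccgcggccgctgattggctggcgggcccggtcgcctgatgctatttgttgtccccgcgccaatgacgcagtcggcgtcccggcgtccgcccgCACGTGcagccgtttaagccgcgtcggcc
Asz1, minus strand, chr6:18059062-18059311: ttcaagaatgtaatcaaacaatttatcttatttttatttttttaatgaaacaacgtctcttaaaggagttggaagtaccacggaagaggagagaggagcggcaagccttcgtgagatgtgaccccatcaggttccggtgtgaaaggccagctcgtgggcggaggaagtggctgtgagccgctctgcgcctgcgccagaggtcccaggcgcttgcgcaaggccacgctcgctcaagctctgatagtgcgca

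In the whole window of 300 bases CACGTG occurred in 7 of the 9 promoters (Piwil1, Tdrd9, Mael, Mov10l1, Tdrd1, Ddx4 and Pld6), and in 7.15% of the 32851 promoters of the table. A pair or more occurred in 2 of the 9 and in 0.594% of all. With the start as 0, its first base lay at -179 and -154 in Piwil1, -165 and -95 in Tdrd9, -223 in Mael and -29 in Ddx4. Of the 26 genes of the longer list with a promoter there, 6 held the motif, against 8.09% of all 27025 gene symbols. The genes with the motif included both those called higher between the PL groups (Mov10l1, Tdrd9) and those with no call (Pld6, Tdrd1), and the promoter of Piwil4, which was called, held none.

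The other 2 motifs searched were CNCCTCAG, described for STRA8, the RA-induced factor of meiotic entry, and AACNG, the core bound by MYB proteins, searched on both strands. None of their matches in the 9 promoters overlapped a CACGTG. CNCCTCAG occurred in Mov10l1 and Asz1, 2 of 9, against 7.94% of all promoters. AACNG occurred in 9 of 9, against 80.3% of all. A match of letters is a description of the window and not a bound site.

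On mm9, in the GENCODE M1 annotation, Piwil1 lies on chromosome 5 (129242121 to 129261349, plus strand), Piwil2 on chromosome 14 (70772287 to 70828901, minus strand) and Piwil4 on chromosome 9 (14500674 to 14545177, minus strand). Mov10l1 lies on chromosome 15 (88813339 to 88885582, plus strand), Tdrd9 on chromosome 12 (113209770 to 113307065, plus strand) and Mael on chromosome 1 (168131516 to 168168875, minus strand). Tdrd1 lies on chromosome 19 (56900699 to 56944502, plus strand), Ddx4 on chromosome 13 (113388541 to 113442518, minus strand), Asz1 on chromosome 6 (18000964 to 18059061, minus strand) and Pld6 on chromosome 11 (59597399 to 59601147, minus strand). In this annotation the 10 genes have between 1546 and 5443 bp of exon.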

How the data were processed

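Germ cells were sorted by FACS from Uchl1-eGfp testes with synchronized spermatogenesis, and stranded poly(A) RNA libraries were read as single ends. The authors trimmed reads with cutadapt 1.9, aligned them to mm9 with STAR 2.5.2b and counted them per gene with featureCounts, and deposited raw counts without normalization. The annotation and strand setting of counting are not given in the sources used here. The table has 24505 genes, 26 with names turned into dates and 2 with names that occur on more than 1 line, and 0 columns were left unused.

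The 3 groups (3 libraries each) were compared in pairs with edgeR 4.0.16 in R 4.3.3, using TMM scaling, filterByExpr, the quasi-likelihood test and Benjamini-Hochberg adjustment over all genes tested. Called genes had an adjusted p below 0.05 and more than 1 on the log2 fold change scale in either direction. CPM was scaled with TMM over all 9 libraries, and RPKM used merged exon lengths of GENCODE M1. The Piwil1 to Piwil4 ratio was taken with 0.5 added to each count and tested with an exact permutation test. By these totals, 3 counts correspond to between 0.111 and 0.238 CPM, which covers counting error only. DESeq2 1.42.0, other scalings, filters, thresholds, a replicate block and each library left out were tried as alternatives. In simulated data with 200 changed genes, edgeR recovered 164 from In/B to RA-sufficient PL (6 false calls, 14782 genes), 127 from In/B to RA-deficient PL (2 false calls, 14293 genes) and 102 between the PL groups (13 false calls, 14680 genes). The median log2 fold change of the simulated rises was 2.01, 2.07 and 1.95 in these comparisons, in that order. Recovery of smaller changes, such as those near the minimum fold, was not tested.

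The members and the lists were chosen with earlier results of these data known. All 10 members are named. Of the longer list, the text names in each class up to 4 called genes with the largest change and a mean of at least 5 CPM, and Mybl1, Dnmt3l and Tdrkh. Genes outside this rule (Fkbp6, the markers Ldhc, Pgk2, Acr, Kit, Sox9 and Stra8, and markers at 0) were chosen after their values were seen. Genes most like a PIWI gene were those with the smallest root mean square difference in centred log2 CPM (prior count 2) among genes whose mean CPM was 10 or more. Promoters were taken from RefSeq's table for GRCm38.p6 and matched to mm9 by identical sequence.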

Additional observations from a re-analysis of the deposited data

How the results depend on the processing

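Of 447 refitted fold changes of the 10 genes, 383 kept their direction and side of an adjusted p of 0.05, 20 no longer passed it, 16 newly passed it and 28 changed sign. Of those 28, 0 belong to a gene with an adjusted p below 0.05 as reported in the same comparison. Depth limits Piwil4 most, with 42 counts in RA-sufficient PL replicate 1. The cause of these shifts was not tested. Scaling by library size alone moved the median of all genes from 0.00 to -0.31 (RA-deficient PL against In/B) and from -0.09 to -0.27 (between the PL groups), and scaling to Ddx4 moved it to 0.36, -0.04 and -0.34 in the 3 comparisons in their order here. The latter and the analysis without the library that stood apart in each group were chosen after seeing the data.

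From In/B to RA-sufficient PL, the number called of the 10 genes was 2, and became 7 with adjusted p alone and 4 with all 9 libraries in 1 fit. With 1 library left out it lay between 2 and 4. Over all genes 6803 of 15001 were called, 9748 of 15001 with adjusted p alone and 5668 of 15836 with all 9 libraries in 1 fit. With 1 library left out between 6553 and 6837 of all genes were called. In RA-deficient PL against In/B the number called of the 10 genes was 1, and became 3 with adjusted p alone. It was 0 without a filter, 0 with all 9 libraries in 1 fit and 0 scaled to Ddx4, and lay between 0 and 1 with 1 library left out. Over all genes 3446 of 14877 were called, and 5459 of 14877 with adjusted p alone. The other settings gave 3387 of 19189, 3989 of 15836 and 3414 of 14877 in that order, and between 2639 and 3995 with 1 library left out. For the PL groups against each other the number called of the 10 genes was 4. It became 1 by library size alone and 1 scaled to Ddx4, and lay between 3 and 5 with 1 library left out. Over all genes 2383 of 15352 were called, 2429 by library size alone and 2548 scaled to Ddx4, and between 1190 and 4484 with 1 library left out.

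For the longer list, 6 called genes in RA-deficient PL against In/B became 13 with adjusted p alone and 11 by library size alone. Over all 14877 genes tested, these settings gave 5459 and 3885. For the PL groups, 973 of all 15352 genes were called at an adjusted p of at most 0.01, and 3629 with adjusted p alone. The 5 genes of the longer list called between the PL groups became 2 at an adjusted p of at most 0.01 and 10 with adjusted p alone. They became 3 by library size alone, 3 scaled to Ddx4 and 11 without the library that stood apart in each group. With 1 library left out the number lay between 3 and 12. Over all genes, the split of calls between the PL groups moved from 687 higher and 1696 lower to 426 and 2003 by library size alone and 342 and 2206 scaled to Ddx4. In RA-sufficient PL against In/B it moved from 3908 and 2895 to 4788 and 1975 scaled to Ddx4, and in RA-deficient PL against In/B from 1693 and 1753 to 1123 and 2762 by library size alone. Without RA-deficient PL replicate 3, 4484 of all 15799 genes tested were called between the PL groups, in place of 2383 of 15352. Without the library that stood apart in each group, 4232 of 15625 were called.

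Signs that changed from In/B to RA-sufficient PL were those of Asz1 (-0.0038 without a filter, -0.020 with all 9 libraries, and between -0.067 and 0.12 with 1 library left out), Pld6 (0.24 scaled to Ddx4, between -0.93 and 0.29 with 1 library left out) and Piwil1 (-0.046 without the libraries that stood apart). In RA-deficient PL against In/B they were those of Piwil2 (-0.035), Tdrd9 (-0.20) and Ddx4 (-0.27) by library size alone, Tdrd9 (-0.014) and Ddx4 (-0.080) with all 9 libraries, and Piwil4 (0.0087) and Pld6 (0.22) without the libraries that stood apart. With 1 library left out, Piwil4 lay between -0.51 and 0.021, Tdrd9 between -0.057 and 0.36 and Pld6 between -0.39 and 0.015. Those between the PL groups were of Tdrd1 (-0.087 by library size alone, -0.13 scaled to Ddx4), Asz1 (-0.026 scaled to Ddx4) and, without the libraries that stood apart, Asz1 (-0.039) and Pld6 (0.84). With 1 library left out, Tdrd1 lay between -0.15 and 0.45 and Pld6 between -0.65 and 0.61.

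Replicate numbers are shared by the groups. Deviations of same-numbered libraries from their group means had correlations between -0.253 and 0.118, and those of other pairs between -0.181 and 0.203. With 3 libraries per group, 1 of them apart from the rest, this cannot decide whether the numbers pair the libraries. With the replicate number as a block, 3 of the 10 genes were called from In/B to RA-sufficient PL, 2 in RA-deficient PL against In/B and 3 between the PL groups. Of the longer list 16, 7 and 4 were called. Over all genes 6373 of 15001, 3208 of 14877 and 1765 of 15352 were called with the block.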

Other observations

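For the 3 PIWI genes, the genes outside the pathway lists with the most similar pattern over the 9 libraries were sought among 9658 genes. Nearest to Piwil1 were Ccdc39, an assembly factor of motile cilia, at a root mean square difference of 0.487 on the log2 scale, Mpi at 0.615 and 1700029M20Rik at 0.643, where the spread of Piwil1 itself was 1.73. Nearest to Piwil2 were Uba1y, the Y-linked ubiquitin-activating enzyme expressed in spermatogonia, at 0.0826, Ulk1, a kinase of autophagy, at 0.1 and Cad, the enzyme of pyrimidine synthesis, at 0.103, where the spread of Piwil2 was 0.529. Nearest to Piwil4 were Cd274 at 0.190, Dhx35 at 0.217 and Reln at 0.231, with a spread of 0.843. The 9 libraries share groups and cell mixtures, so these are descriptions of likeness in these libraries.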
